A study of Yarrowia lipolytica CLIB122 with 6 samples.

Results

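The transcripts described here are weakly expressed genes of Yarrowia lipolytica, an oleaginous yeast used to make fatty acid derived products, whose levels were at least 2 times as high in strain A24 as in strain C24. They were chosen by the measured values themselves. A transcript was taken when its NCBI gene number was below 7000000, its mean over the 6 libraries was at least 1 and below 10 FPKM, its A24 mean was at least 2 times its C24 mean, and each of its A24 values lay above each of its C24 values. FPKM counts sequenced fragments relative to the length of a transcript and to the total of its library, so levels can be compared between genes. This rule was met by 61 of the 6452 transcripts measured, or by 61 of the 854 weakly expressed transcripts with such a gene number. The difference between A24 and C24 is therefore the reason why they are listed, and it is given below as a description with no test.

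The 6 libraries, 3 from A24 and 3 from C24, hold RNA of cells harvested early in logarithmic growth, 24 h into the culture. According to the study, RNA-Seq compared YlΔA1-FAR with WT-FAR, both grown in rich YPD medium and both with the gene FAR, which encodes a fatty acyl-CoA reductase, driven by the TEFin promoter from the IntF site. Both descend from a background strain with mutations in ura3, leu2 and lys8 and with PEX17-HA, and both carry the marker LEU2 beside FAR. In YlΔA1 the hypothetical gene A1, weakly similar to the Golgi apyrase gene YND1 of Saccharomyces cerevisiae, was disrupted with CRISPR/Cas9. The study reports that this lowered the A1 transcript and left the gene partly active. The labels give the codes A24 and C24 alone. A24 was read as the A1 disruptant and C24 as the control, and the level of A1, which would check this reading, was not analysed here. A single strain of each genotype was compared, so a difference that arose in either during its construction cannot be told apart from an effect of A1. The study also reports better growth, more ATP and more fatty alcohol in YlΔA1-FAR than in WT-FAR. Effects of these on transcripts cannot be told apart from other effects of A1.

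An apyrase removes phosphate groups from nucleoside diphosphates and triphosphates, and in S. cerevisiae the Golgi enzymes of this kind serve the import of nucleotide sugars for glycosylation. FAR reduces fatty acyl-CoA to fatty alcohol. In yeasts that grow in rich medium, the weakly transcribed part of the genome includes many genes whose products are needed in other nutrient conditions, in mating or under stress. The table used here pairs the members with gene numbers and the reference adds locus tags, but neither gives a product, so no role is given to any member.

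The libraries of a strain resembled each other closely. Over the transcripts that averaged 1 FPKM or more, the correlation of log2(FPKM + 0.1) was 0.993 to 0.995 within A24. It was 0.994 to 0.996 within C24 and 0.964 to 0.969 between the strains. The summed FPKM was 1266078 to 1303563 in A24 and 1208546 to 1226334 in C24. In very low transcripts the values can be whole multiples of 1 step per transcript. A search fitted such steps in 234 transcripts, with up to 25 steps and a rounding tolerance of 0.0055 FPKM. The relative depths of the libraries were fitted together with the steps, and came out between 0.992 and 1.01, a spread of 1.86%. How many steps would fit by accident was not tested, so these depths are an estimate. The number of fragments behind the values of the members was not recovered. No counting error can therefore be given, and the spread between the 3 libraries is the measure of error used.

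In A24 the strain means of the members ran from 1.63 to 16.7 FPKM, with a median of 7.05. In C24 they ran from 0 to 6.46 FPKM, with a median of 2.52. Low levels in both strains are set by the rule, which keeps the mean over the 6 libraries below 10 FPKM. The median member stood at percentile 9.74 of all 6452 transcripts in C24 and at percentile 16.6 in A24, and the highest member stood at percentile 28.2 in A24. In A24, 21 members had a mean of 10 FPKM or more, 21 had 5 to 10, 17 had 2 to 5 and 2 had less than 2. In C24, 9 members had a mean below 1 FPKM, 15 had 1 to 2, 20 had 2 to 4 and 17 had 4 or more. Cells that make more of such a transcript and a larger share of cells that make it cannot be told apart in RNA from whole cultures.

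Within a strain the 3 libraries gave similar sums over the members. The members added up to 476.1, 471.1 and 494.2 FPKM in the A24 libraries and to 166.9, 163.7 and 173.1 FPKM in the C24 libraries. The median member was at 7.04, 7.17 and 6.81 FPKM in A24 and at 2.52, 2.31 and 2.57 FPKM in C24. In the sum and in the median, each library lay close to the others of the same strain, while the distance between the strains is fixed by the rule. Over all 854 weakly expressed transcripts, members included, the sums of the strains overlapped. They were 4133, 3961 and 4207 FPKM in A24 and 4270, 4039 and 4247 FPKM in C24.

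**Figure D1:**
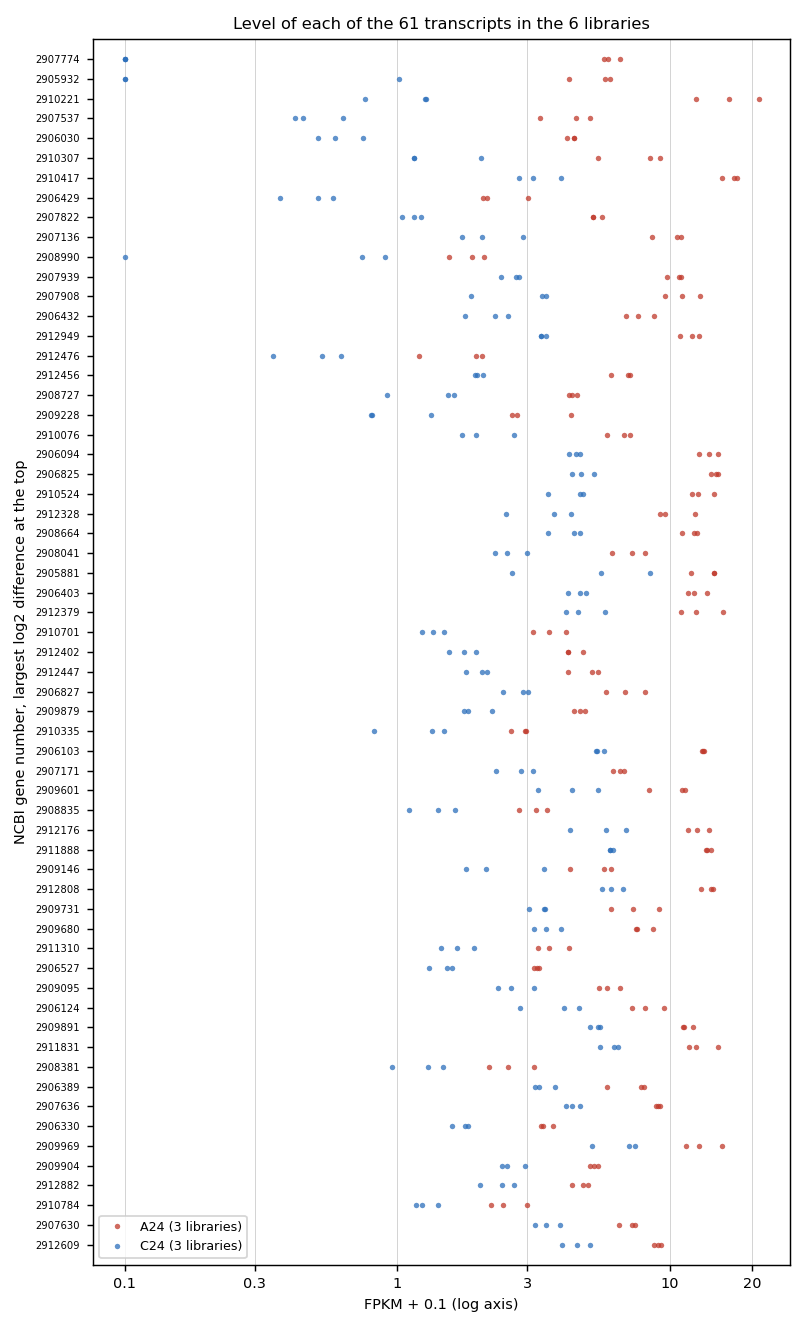
Level of each member in the 6 libraries, plotted as FPKM + 0.1 on a log axis, with A24 in red and C24 in blue and the largest log2 difference at the top. The rule keeps the red and blue points of a member apart, and the smallest gap between them is 0.58 FPKM.

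For the 60 members with a C24 level above 0, the ratio of the A24 mean to the C24 mean ran from 2.00 to 17.3, with a median of 2.55 and quartiles of 2.26 and 3.57. The members lay mostly close to the limit of the rule, with 29 at a ratio below 2.5 and 9 at 2.5 to 3. A further 11 had a ratio of 3 to 4, 7 had 4 to 8 and 4 had 8 or more. On the log2(FPKM + 0.1) scale the difference was 0.99 to 5.92, with a median of 1.34, beside a median of -0.15 over all 854 weakly expressed transcripts and of -0.19 over those that are no member. The added 0.1 FPKM makes the differences of low transcripts smaller. Where a C24 value is at 0, the size of the difference depends on the amount added and can exceed the log2 of the ratio of means.

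The rule asked for no overlap, so a gap between the strains is part of the choice of members. In 35 of 61 members the lowest A24 value was at least 2 times the highest C24 value. Such a transcript also meets the rule. These 35 are therefore all that do so among the 854 weakly expressed ones. The gap between the lowest A24 and the highest C24 value was 0.58 to 11.5 FPKM, with a median of 3.25, and it was never smaller than 16.3% of the A24 mean. Lack of overlap is common in these data. Every A24 value lay above every C24 value in 28.3% of all transcripts that averaged 1 FPKM or more and in 27.4% of the weakly expressed ones, and the whole rule was met by 7.14% of the latter. In the limma comparison over 6052 transcripts, 58 of the 61 members passed an adjusted p of 0.05 with a log2 difference above 1, where 3.85% of all transcripts did so in this direction, 2.71% in the opposite one and 6.56% in either. The members were chosen from this contrast, and nothing is read from that count. The 3 that did not pass, YALI1_E30520g (2912609), YALI1_D08798g (2910784) and gene number 2907630, which has no locus tag, had differences of 0.99, 1.00 and 0.99. On this scale the added 0.1 FPKM brings a ratio near 2 just under the limit, and with 0.01 added 60 members passed.

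**Figure D2:**
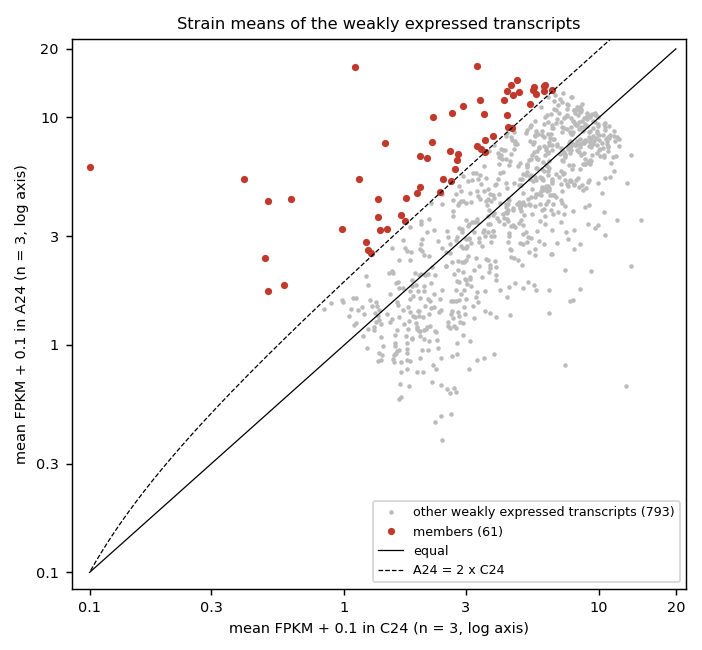
Mean level in A24 against mean level in C24 for the weakly expressed transcripts, both as FPKM + 0.1 on log axes with n = 3, with the 61 members in red and the 793 others in grey. The members begin at the dashed line, where A24 is 2 times C24, and the point at the left edge is YALI1_F03992g, listed at 0 in each C24 library.

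YALI1_F03992g (gene number 2907774, chromosome F) was the only member listed at 0 in all C24 libraries. It was at 6.43, 5.83 and 5.61 FPKM in A24 and at 0, 0 and 0 in C24. Every A24 library thus gave a level near 6 FPKM, where each C24 library was listed at 0, the value also given to levels too low for the second decimal. No ratio exists, and the fitted log2 difference of 5.92 depends on the added 0.1 FPKM. Among the other 793 weakly expressed transcripts, 0 were listed at 0 in every C24 library and 2 in every A24 library.

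A pair of further members were at 0 in some C24 libraries. YALI1_A09166g (2905932, chromosome A) was at 5.92, 5.67 and 4.16 FPKM in A24 and at 0, 0 and 0.91 FPKM in C24. Its C24 level rests on a single library. The log2 difference of 4.61 (SE 0.79) goes to 5.72 without that library and to 4.06 without either of the libraries at 0. The difference also depends on the added 0.1 FPKM, and was 2.32 with 1 FPKM added and 6.85 with 0.01 FPKM added. YALI1_F13476g (2908990, chromosome F) was at 1.97, 1.45 and 1.78 FPKM in A24 and at 0, 0.80 and 0.64 FPKM in C24. Here 1 library at 0 sets much of the difference of 2.17 (SE 0.73), which is 1.16 without it. With all libraries, this difference was 0.93 with 1 FPKM added and 3.31 with 0.01 FPKM added. No member was at 0 in any A24 library.

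Of the remaining members, YALI1_D34446g (2910221, chromosome D) had the largest difference. It was at 16.4, 12.3 and 21.0 FPKM in A24 and at 0.66, 1.17 and 1.16 FPKM in C24, a log2 difference of 3.93 (SE 0.25). Its A24 mean of 16.6 ± 4.36 FPKM (SD, n = 3) was 16.6 times its C24 mean of 1.00 ± 0.29 FPKM. The A24 libraries differed among themselves by more FPKM than the whole C24 level of this gene, yet the strains were 11.1 FPKM apart at their nearest values.

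YALI1_B17441g (2907537, chromosome B) and YALI1_A08981g (2906030, chromosome A) were nearly silent in C24. The former was at 4.40, 3.23 and 4.98 FPKM in A24 and at 0.35, 0.32 and 0.53 FPKM in C24, a log2 difference of 3.11 (SE 0.26). The latter was at 4.33, 4.10 and 4.36 FPKM in A24 and at 0.41, 0.49 and 0.65 FPKM in C24, a log2 difference of 2.84 (SE 0.21). Their A24 means, 4.20 and 4.26 FPKM, were alike, and the ratios were 10.5 and 8.25. YALI1_A14882g (2906429, chromosome A) showed the same pattern at a lower level. It was at 1.96, 2.04 and 2.91 FPKM in A24 and at 0.48, 0.27 and 0.41 FPKM in C24, a log2 difference of 2.31 (SE 0.29).

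YALI1_D04370g (2910307, chromosome D) was at 9.08, 5.33 and 8.35 FPKM in A24 and at 1.05, 1.92 and 1.05 FPKM in C24. For this gene library 2 of A24 was the lowest of its strain and library 2 of C24 the highest of its own. These nearest values of the strains were still 3.41 FPKM apart. YALI1_F28590g (2907822, chromosome F) was steadier, at 5.11, 5.11 and 5.54 FPKM in A24 and at 0.94, 1.12 and 1.05 FPKM in C24. YALI1_B21935g (2907136, chromosome B) was at 10.9, 8.47 and 10.5 FPKM in A24 and at 2.79, 1.95 and 1.62 FPKM in C24. The ratios of these 3 members were 5.66, 5.07 and 4.69, and in each the nearest values of the strains were at least 3.41 FPKM apart.

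Another set of members was at a clear level in C24 and higher still in A24. YALI1_D01234g (2910417, chromosome D) had the highest A24 mean, 16.7 FPKM, and the widest gap, 11.5 FPKM. It was at 17.1, 15.4 and 17.6 FPKM in A24 and at 3.04, 3.88 and 2.70 FPKM in C24, a log2 difference of 2.36 (SE 0.13). YALI1_B25136g (2906825, chromosome B) was at 14.7, 14.0 and 14.8 FPKM in A24 and at 4.60, 4.27 and 5.14 FPKM in C24. YALI1_A07137g (2906094, chromosome A) was at 13.8, 12.7 and 14.8 FPKM in A24 and at 4.17, 4.59 and 4.41 FPKM in C24. These last were about equal in level and in ratio, at 3.10 and 3.14, with gaps of 8.86 and 8.07 FPKM.

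YALI1_E14824g (2912808) and YALI1_E25364g (2911888), both on chromosome E, lay nearer to the limit of the rule at a similar A24 level. The former was at 12.9, 14.0 and 14.3 FPKM in A24 and at 6.64, 5.55 and 5.97 FPKM in C24. The latter was at 13.5, 13.5 and 14.1 FPKM in A24 and at 5.94, 5.91 and 6.10 FPKM in C24. Their ratios of 2.27 and 2.29 were small beside those above, but the values within a strain were so close that the gap of YALI1_E25364g, 7.39 FPKM, was among the widest 5.

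The spread between libraries of a strain differed widely among members. In A24 the SD of log2(FPKM + 0.1) had a median of 0.14, with quartiles of 0.09 and 0.22. In C24 the median was 0.21, with quartiles of 0.13 and 0.34. For the other weakly expressed transcripts the medians were 0.16 in A24 and 0.14 in C24. The members were thus less even in C24 than the others, but their C24 level was also lower, with a median of 2.52 against 4.69 FPKM, and the part of the level in this spread was not tested. In all 3 libraries of a strain, 50 members stayed within 20% of their A24 mean and 35 within 20% of their C24 mean.

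**Figure D3:**
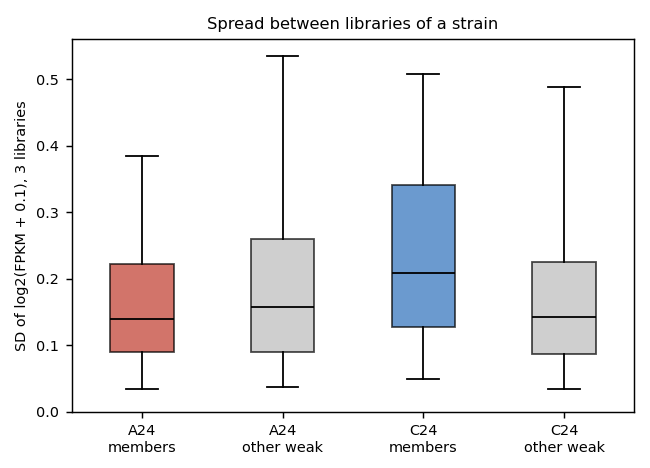
SD of log2(FPKM + 0.1) over the 3 libraries of each strain, for the 61 members and for the 793 other weakly expressed transcripts. Boxes span the quartiles with the median as a line, and whiskers reach the 5th and 95th percentiles, the member boxes having medians of 0.14 in A24 and 0.21 in C24.

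The steadiest member in A24 was YALI1_A08175g (2906103, chromosome A), at 13.0, 13.1 and 13.2 FPKM, with an SD of 0.012 on the log2 scale. It was at 5.62, 5.24 and 5.28 FPKM in C24. YALI1_B18347g (2907636, chromosome B) was at 8.78, 9.10 and 8.95 FPKM in A24 and at 4.27, 4.59 and 4.05 FPKM in C24. Low members could be as even as higher ones. YALI1_A02037g (2906527, chromosome A) was at 3.14, 3.21 and 3.08 FPKM in A24, an SD of 0.029, and at 1.21, 1.42 and 1.48 FPKM in C24.

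The widest spread in A24, an SD of 0.42, belonged to YALI1_E09884g (2912476, chromosome E). It was at 1.84, 1.10 and 1.95 FPKM in A24 and at 0.52, 0.25 and 0.43 FPKM in C24. Library 2 was the lowest in both strains, and the gap of 0.58 FPKM between the strains was the smallest of all members. YALI1_C09260g (2909228, chromosome C) was at 2.53, 2.65 and 4.24 FPKM in A24 and at 0.71, 1.23 and 0.70 FPKM in C24. The A24 SD of 0.40 comes from library 3, whose value was far above the other 2. In C24 the widest spread after the pair of members with a 0 in part of the libraries was that of YALI1_A06396g (2905881, chromosome A), a gene chosen after its values were seen. It was at 11.8, 14.4 and 14.4 FPKM in A24 and at 5.49, 2.54 and 8.35 FPKM in C24, so that the strains were kept apart although C24 varied by more than 3 times.

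Library 3 of A24 held the highest A24 value for 30 of the 61 members (49.2%), library 2 for 16 and library 1 for 15. Among the other weakly expressed transcripts library 3 also held the most, 40.5%, with 37.7% in library 1 and 20.7% in library 2. In C24 the highest value was in library 1 for 18 members (29.5%), in library 2 for 19 (31.1%) and in library 3 for 23 (37.7%), with 1 tie. Among the other weakly expressed transcripts the C24 shares were 40.0%, 21.6% and 37.3%.

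The limits of the rule cut through a continuous range of values. Just inside the limit of a ratio of 2 were YALI1_E30520g, at 8.92, 9.15 and 8.60 FPKM in A24 and 4.45, 3.90 and 4.98 FPKM in C24, and gene number 2907630, at 6.38, 7.17 and 7.33 FPKM in A24 and 3.42, 3.84 and 3.09 FPKM in C24. Just outside were YALI1_A17123g (2906184) and YALI1_B08540g (2907602), both with a ratio of 1.98. At the upper limit, YALI1_D01234g and YALI1_E14824g were inside with means of 9.95 and 9.88 FPKM. YALI1_E30173g (2912710) was outside with a mean of 10.03 FPKM, although its values of 16.3, 15.5 and 16.6 FPKM in A24 and 3.75, 3.87 and 4.21 FPKM in C24 are much like those of YALI1_D01234g.

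At the lower limit, YALI1_E09884g and YALI1_F13476g were inside with means of 1.01 and 1.11 FPKM. YALI1_B24901g (2907553) was outside with a mean of 0.97 FPKM and 0.05 FPKM between its strains, and gene number 2906517 was outside with 0.87 FPKM. The condition on overlap removed 0 transcripts beyond the other conditions. Of 39 transcripts of 1 to 10 FPKM with a higher gene number or none, 2 met all other conditions, both named here after their values were seen. Gene number 7009378 was at 3.82, 2.90 and 2.33 FPKM in A24 and at 0.60, 1.77 and 1.2 FPKM in C24. Gene number 7009471 was at 3.75, 7.84 and 6.29 FPKM in A24 and at 1.71, 3.23 and 0 FPKM in C24. Both were less even than most members.

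Level classes show where the members stand among transcripts that differ between the strains. In the class of 1 to 10 FPKM, which holds the members, 61 transcripts (7.14%) met the rule and 112 (13.1%) met it with the strains exchanged. From 10 to 100 FPKM the counts were 96 (3.01%) and 35 (1.10%) of 3188, and at 100 FPKM or more they were 69 (3.73%) and 16 (0.86%) of 1851. Below 1 FPKM they were 9 (2.33%) and 113 (29.3%) of 386. By this rule the weak class had the highest share of these 4 for transcripts higher in A24, while within it the opposite direction was the more frequent. Without the limit on the ratio, every A24 value lay above every C24 value in 27.4% of the weak class, beside 32.8% at 100 FPKM or more. The median log2 difference was -0.61 below 1 FPKM, -0.15 in the class of the members, -0.10 from 10 to 100 FPKM and -0.06 above. These shares are descriptions of the same values that chose the members.

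**Figure D4:**
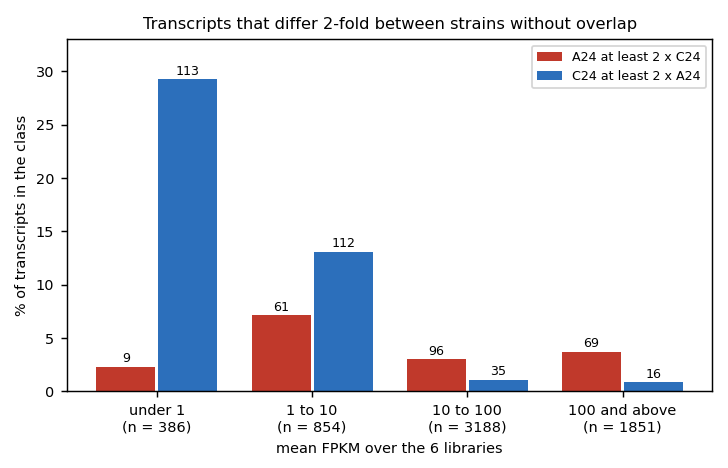
Share of the transcripts of each level class, in %, that were at least 2 times as high in A24 (red) or in C24 (blue) with no overlap between libraries, with the number of transcripts above each bar. In the class of 1 to 10 FPKM the bars stand for 61 and 112 of 854 transcripts.

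Positions were not used by the rule. They were taken from the gene order of the RefSeq table for strain CLIB89, assembly ASM176148v1, which matched 57 of the 61 members and 6073 of all 6452 transcripts by gene number. The members lay on all 6 chromosomes. Chromosome E held 12, A and C held 11 each, F held 9, D held 8 and B held 6. As a share of the weakly expressed transcripts of a chromosome, this was 9.32% on A, 8.53% on C, 7.03% on F, 6.70% on E, 6.45% on B and 6.30% on D. Over all 854 weakly expressed transcripts, placed or not, the share was 7.14%. Within 50 measured genes of a chromosome end lay 5 members (8.77%), beside 9.76% of the other weakly expressed transcripts and 9.88% of all transcripts placed. As a share of all transcripts placed on a chromosome, the members made up 1.79% on A, 1.28% on C, 0.87% on E, 0.76% on D, 0.71% on F and 0.67% on B. Chromosome A was thus highest on both scales, which share the same counts of members. The chromosomes differed more on the latter scale, which also counts how many weakly expressed transcripts each holds. Whether the chromosomes differ beyond the scatter of such small counts was not tested.

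**Figure D5:**
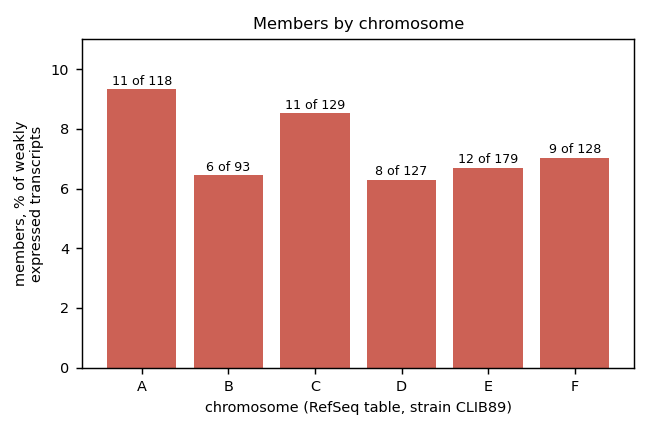
Members on each chromosome as a share, in %, of the weakly expressed transcripts placed there, with both numbers above each bar. The shares run from 6.30% on D to 9.32% on A.

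No member was the direct neighbour of another. The closest were YALI1_B25136g and YALI1_B25223g (2906827), with 1 measured gene between them, YALI1_B25187g. That gene was far more abundant, with means of 97.0 FPKM in A24 and 71.3 FPKM in C24, a ratio of 1.36. YALI1_B25223g itself was at 5.73, 7.96 and 6.73 FPKM in A24 and at 2.92, 2.80 and 2.33 FPKM in C24. The 3 members YALI1_C28310g, YALI1_C28456g and YALI1_C28664g followed each other with 4 and then 7 measured genes between them, and YALI1_A08981g and YALI1_A09166g, both among the largest differences, had 5 between them.

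The genes that flank the members had a median difference between the strains close to that of all placed transcripts. Larger shares of them were higher in A24. The placed transcripts they are set beside include the 57 placed members, all higher in A24 by the rule, which raises the shares given for all. Shares without the members were not computed, and the difference was not tested. The 106 flanking genes that averaged 1 FPKM or more had a median log2 difference of -0.06, beside -0.09 over the 5778 placed transcripts of that level, and a median level of 49.9 FPKM beside 49.5. Every A24 value was above every C24 value in 39 of them (36.8%), beside 28.6% of all. A log2 difference above 1 was found in 5 flanking genes (4.72%), beside 3.79% of all, and a difference below -1 in 2 (1.89%), beside 2.60%. The 5, named here after their values were seen, were YALI1_B25258g at 2.72, YALI1_C24891g at 2.47, YALI1_D10693g at 1.80, YALI1_E06712g at 1.68 and YALI1_C28263g at 1.01. The 2 were YALI1_E30561g at -1.33 and YALI1_A08901g at -1.03.

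Some of these neighbours were far more abundant than the member beside them. YALI1_C24891g had means of 839.5 FPKM in A24 and 151.5 FPKM in C24, while its neighbour YALI1_C24927g (2910076) was at 7.04, 6.67 and 5.78 FPKM in A24 and 1.85, 1.62 and 2.57 FPKM in C24. YALI1_B25258g, beside YALI1_B25223g, had means of 108.9 and 16.4 FPKM. The part of reads from such a neighbour in the low level of the member beside it was not tested.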

How the data were processed

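RNA-Seq was measured in 3 libraries of A24 and 3 of C24. Per the labels, rRNA was removed, and per the study the cDNA was made with random primers, sequenced on the BGISEQ platform, filtered with SOAPnuke and quantified with RSEM. The submitters' processing notes list HISAT2 2.0.4, Bowtie2 2.2.5 and RSEM 1.2.12. The genome build and annotation are not given in the sources used here. The authors deposited FPKM values with 2 decimals, and values too low for the second decimal appear as 0. RSEM divides reads that fit several genes, so levels of near-identical genes are uncertain.

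Members and lists were chosen with earlier results of these data known. For the 6052 transcripts that averaged 1 FPKM or more, limma 3.58.1 in R 4.3.3 compared A24 with C24 on log2(FPKM + 0.1), with a trend, no block and all 6 libraries, and its p-values were given a Benjamini-Hochberg adjustment. The comparison was tested on simulated data. Its calls serve only as a background share, since the members were chosen on the same contrast. An exact permutation test of 3 against 3 libraries, which was not run, cannot go below p = 0.1. The labels name 3 parallel samples a strain, and whether these were separate cultures is not stated there, so the errors measure the spread between these samples. Tables were handled with pandas 2.3.3 in Python 3.11.

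Genes are named by a rule: members at 0 in every C24 library, the 10 largest log2 differences, the 5 highest A24 means, the 5 widest gaps, the 5 largest and 5 smallest SDs in A24, neighbouring members, and the 2 transcripts on each side of each limit. Outside this rule, some genes were named after their values were seen. Besides those marked above, these were YALI1_B25223g, YALI1_B25187g, YALI1_C28310g, YALI1_C28456g, YALI1_C28664g, YALI1_C24927g and YALI1_D08798g. Product groups and sequence features were planned and not analysed here, as the tables used hold no products or sequences of these genes. Alternatives were other pseudocounts, filters, limits and scalings, a replicate block, a fit without the trend and leaving out each library.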

Additional observations from a re-analysis of the deposited data

How the results depend on the processing

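The rule gave 61 members with the values as deposited. Limits on the mean of under 5 FPKM gave 32, a ratio of at least 1.5 gave 141, and a ratio of at least 3 gave 23. Median-of-ratios scaling, which moves the median transcript by 0.09 on the log2 scale, gave 71, of which 60 were members. Equal FPKM totals, which move it by -0.07, gave 53, of which 52 were members, and 51 members met the rule under both scalings. Leaving out 1 library at a time gave 55 to 66 transcripts, and 40 members met the rule in all 6 cases. The median log2 difference of the members, 1.34, was 1.07 with a pseudocount of 1, 1.43 with median-of-ratios scaling, 1.27 with equal totals and 1.33 to 1.39 without 1 library.

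The limma comparison called 397 transcripts, 233 higher and 164 lower in A24, and 226 with a filter of at least 10 FPKM, which leaves no member to test. Without 1 library it called 383 to 407. With a pseudocount of 1, 101 transcripts were lower, and 37 members were past the thresholds in place of 58. With no filter 247 were lower, and with the filter of at least 10 FPKM 54 were lower. With a replicate block 399 were called, 58 members among them. Libraries with the same number did not deviate together, with correlations of -0.02, 0.04 and 0.08. These correlations cannot show whether libraries of the same number were handled together. Of 220 log2 differences of named members under alternatives, 29 moved by more than the spread between libraries; their direction is fixed by the choice of members. The low levels limit precision, and members near a ratio of 2 or a mean of 10 FPKM depend on where the limits stand.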
